A study of Mus musculus with 16 samples.

Results

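The genes of Wnt signalling at the cell surface were examined in differentiated mouse brown adipocytes. They were chosen by symbol: the Wnt ligands, the Frizzled receptors, the co-receptors *Lrp5* and *Lrp6*, the R-spondins, the secreted inhibitors of the Sfrp and Dkk families, *Wif1*, and the feedback target *Axin2*. This gave 45 genes of the 54347 in the table. The cells were of the wt1-SAM line, immortalised brown preadipocytes that carry the CRISPRa SAM system, with which a guide RNA (sgRNA) directs activators of transcription to a chosen gene. All 16 libraries came from cells differentiated for 7 days, with rosiglitazone, an agonist of PPARγ, T3, dexamethasone, insulin, indomethacin and IBMX at induction and with 0.5 µM rosiglitazone to the end, and reverse transfected at day 4 with 250 ng of plasmid. The study asked which genes respond when the long noncoding RNA *Gm15551* is activated, and whether β-adrenergic stimulation changes that response.

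The 4 groups had 4 libraries each, with replicate numbers 3 to 6. The first received the empty sgRNA vector and no stimulus (empty vector, control), and the next the same vector and 1 µM isoproterenol, a β-adrenergic agonist, for the last 24 h (empty vector, isoproterenol). The other two received plasmids titled pSgRNA-MS2-2+7, which encode guides against *Gm15551*, without or with isoproterenol (sgRNA, control and sgRNA, isoproterenol). No label says that the numbers stand for separate cultures, and p-values then measure only the spread between these libraries, which may be technical. The cells are 1 immortalised line.

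Wnt proteins are secreted lipid-modified ligands that bind a Frizzled receptor together with LRP5 or LRP6. Binding stops the destruction of β-catenin, which then works with TCF/LEF factors on target genes such as *Axin2*, and other Frizzled signals act through cell polarity and calcium. R-spondins prolong the stay of Frizzled receptors on the membrane, whereas Sfrp proteins and Wif1 bind the ligands and Dkk proteins bind the co-receptors. In adipose tissue the pathway is known as a brake on the differentiation of preadipocytes.

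Total estimated counts per library ranged from 9053521 to 16546187, and 1 ribosomal RNA gene took 11.7% to 51.8% of them, with the 2 highest shares in the empty vector libraries of replicate 5. The target *Gm15551* had 3 to 18 counts in the empty vector and 19 to 56 in the sgRNA control libraries, and 0 to 5 against 13 to 26 after isoproterenol, so that the libraries of both plasmids did not overlap within either treatment. Adipocyte identity was plain, with *Adipoq*, which encodes adiponectin, at group means of 340 to 790 CPM (counts relative to the library size, scaled by TMM). The brown marker *Ucp1*, the uncoupling protein of thermogenesis, was low in control libraries (0.0 to 0.979 CPM) and 4.37 to 15.5 CPM after isoproterenol, while *Dio2* had 1 count in all libraries together.

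Receptors rather than ligands made up the signal. Of the 45 genes, 39 had at least 1 count and 10 passed the filter on low counts. The 10 were *Fzd1*, *Fzd2*, *Fzd4*, *Fzd5*, *Fzd7*, *Fzd8*, *Lrp5*, *Lrp6*, *Wnt2b* and *Wnt4*, and they held 98.6% of the 30589 counts of all members. *Lrp6* alone held 15298 of them. The 2 co-receptors had 19793 counts and the 10 Frizzled receptors 10167, against 484 for the 19 ligands, 100 for the 9 secreted inhibitors, 35 for *Axin2* and 10 for the 4 R-spondins. Of the 35 members that were not tested, 6 had 0 counts in every library (*Wnt2*, *Wnt6*, *Wnt7a*, *Wnt8a*, *Wnt9b* and *Rspo1*), 20 had 1 to 10 counts in total and 9 had more. A count of 0 over all 16 libraries allows up to 3 counts, or 0.0147 CPM, and in a single library 0.166 to 0.39 CPM, for counting error only.

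**Figure D1:**
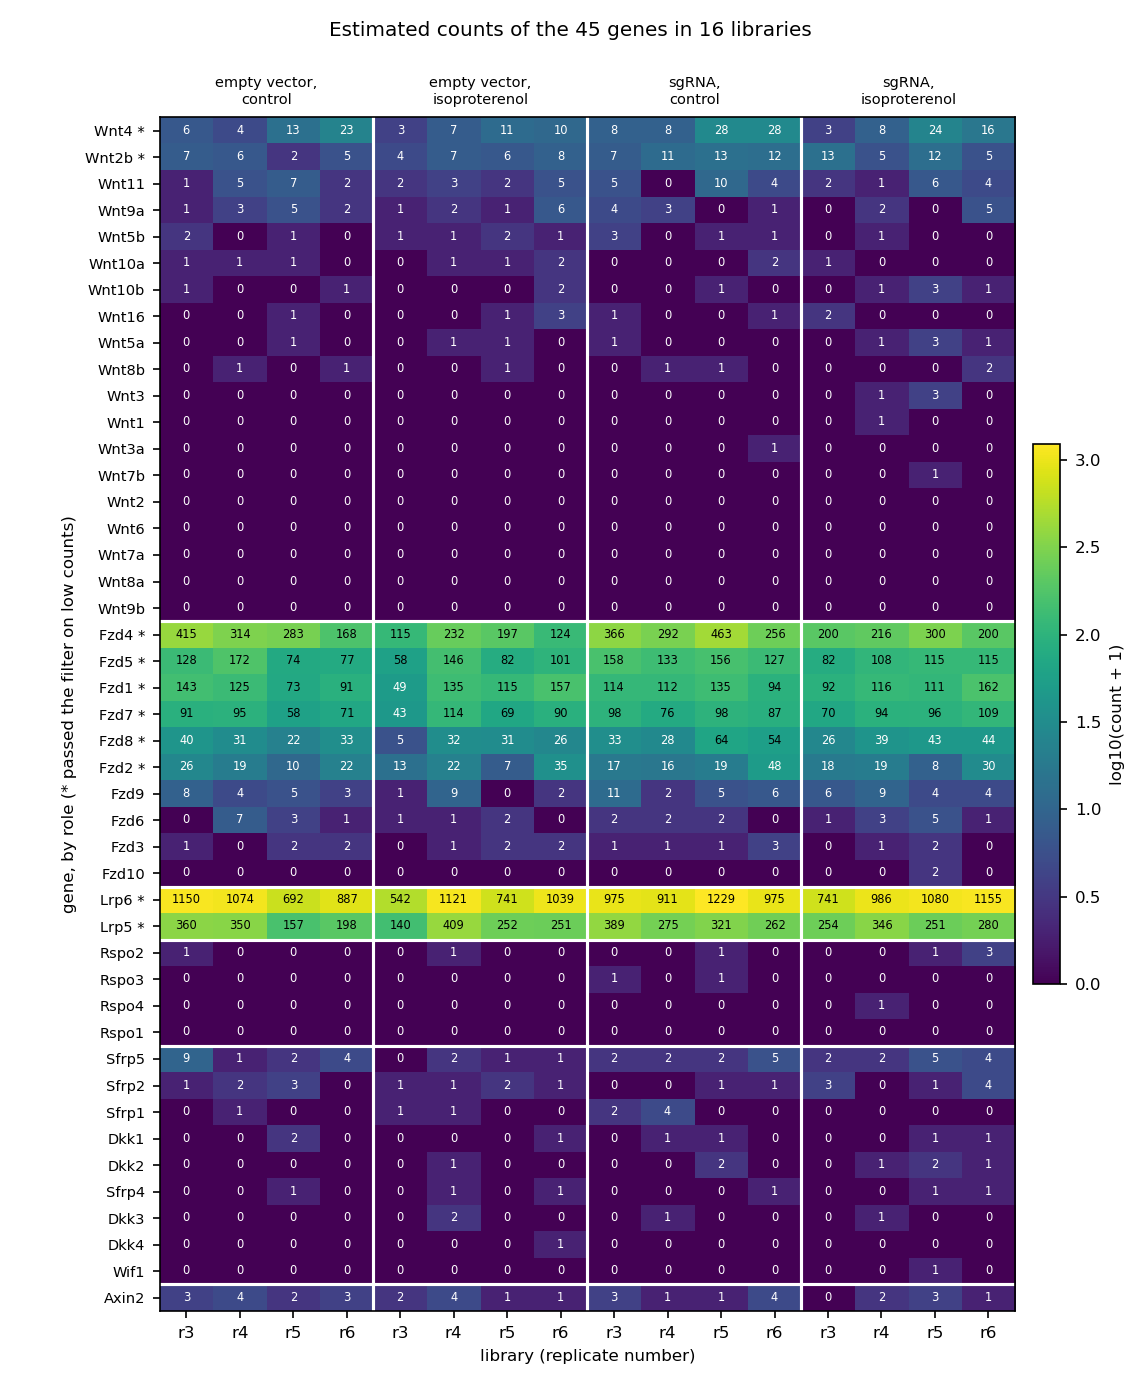
Estimated counts of the 45 genes (rows, by role) in the 16 libraries (columns, by group and replicate number), printed in each cell and coloured by log10(count + 1), with an asterisk at the 10 genes that passed the filter. Counts sit in 6 Frizzled receptors and the 2 co-receptors, while *Wnt4* and *Wnt2b* are the only ligands that passed the filter, with at most 28 counts in a library.

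Levels of different genes were compared as CPM per kb of exon. *Lrp6*, the more abundant co-receptor, stood first with 5.62 ± 0.892 (SD, n = 16) and lay above the next gene in 16 of 16 libraries. *Fzd4*, a receptor for Wnt ligands and for norrin, followed with 3.10 ± 1.13 and was above *Lrp5* (2.27 ± 0.351) in 13 libraries. In stimulated empty vector cells, however, *Fzd4* averaged 2.35, against 2.41 for *Lrp5* and 2.48 for *Fzd1*, so that second place held in the other 3 groups only. *Lrp5* and *Fzd1* (2.18 ± 0.545) did not separate, since *Lrp5* was higher in 10 of 16. Next came *Fzd7* at 1.49 ± 0.219 and *Fzd5* at 1.30 ± 0.233, with *Fzd7* higher in 12 libraries. A step down led to *Fzd8* (0.457 ± 0.172) and *Fzd2* (0.444 ± 0.213), each higher in 8 libraries. The ligands closed the order, *Wnt4* at 0.252 ± 0.182 and *Wnt2b* at 0.147 ± 0.0668, with *Wnt4* higher in 11. Neighbours in this order other than *Lrp6* over *Fzd4*, *Fzd1* over *Fzd7* and *Fzd5* over *Fzd8* thus changed places between libraries.

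**Figure D2:**
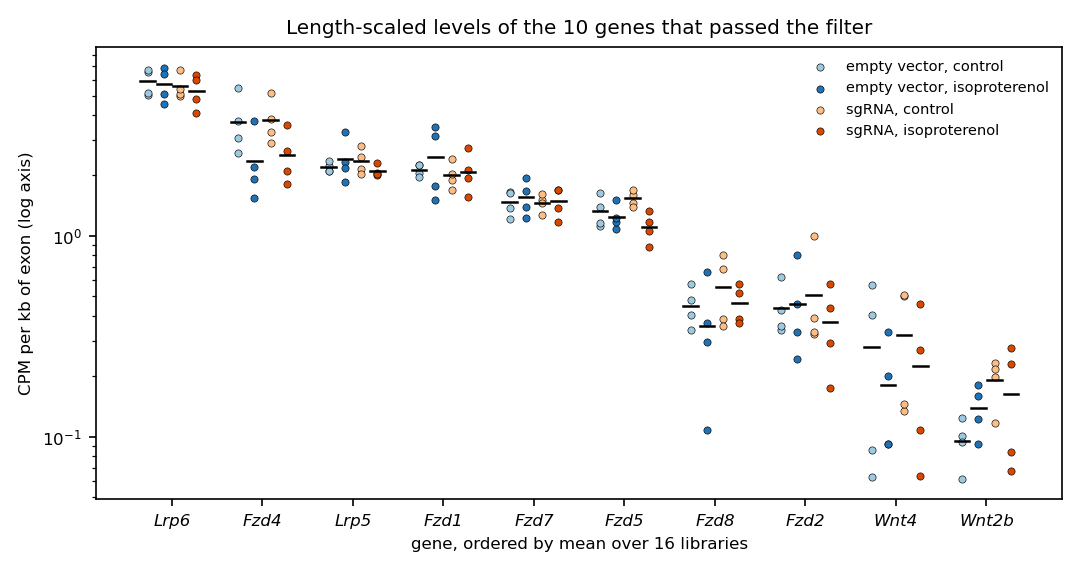
CPM per kb of exon (log axis) of the 10 tested genes in each library, coloured by group, with short lines at group means. *Lrp6* lies highest, between 4.08 and 6.90 over the 16 libraries. *Wnt2b* has the lowest mean, with values between 0.0618 and 0.275, and *Wnt4* lies above it in 11 of the 16 libraries.

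The Frizzled receptors are the seven-span membrane proteins that take up the ligand. Among the tested members, only *Fzd4* was lower after isoproterenol in all 8 pairs of libraries with the same replicate number. The gene lies on chromosome 7 (GRCm38 89404355 to 89413134, plus strand) and has 2 exons. In empty vector control libraries of replicates 3, 4, 5 and 6 it stood at 25.0, 20.6, 36.7 and 17.4 CPM, and after isoproterenol at 14.8, 12.8, 25.1 and 10.4 CPM. In sgRNA control libraries it stood at 25.6, 22.2, 34.7 and 19.4 CPM, and after isoproterenol at 17.8, 12.2, 24.0 and 14.1 CPM. The stimulated library was the lower one in 8 of 8 pairs with the same replicate number, at 0.55 to 0.726 of its control, but control and stimulated groups overlapped, because replicate 5 was the highest in all 4 groups.

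The averaged isoproterenol effect on *Fzd4* was a log2 fold change of −0.63 ± 0.205 (SE), with a 95% interval of −1.06 to −0.19, and its adjusted p was 0.103 in edgeR's quasi-likelihood test without a replicate term. Libraries of the same number varied together over all genes. When each number had its own term in the fit (the replicate block), the change was −0.63 ± 0.0631, with an interval of −0.77 to −0.50 and an adjusted p of 3.39e-06, a 0.644-fold level. Under the block *Fzd4* fell in empty vector cells by 0.68 (log2, adjusted p = 0.00017) and in sgRNA cells by 0.59 (adjusted p = 0.000416). The difference between these effects was 0.08 ± 0.126 (unadjusted p = 0.525, adjusted p = 1), with an interval of −0.19 to 0.35. With the 2 empty vector libraries of replicate 5 left out, the blocked change was −0.67 (adjusted p = 1.41e-05). Without the block, leaving out replicate 5 gave *Fzd4* an adjusted p of 0.0192, and leaving out its stimulated empty vector library alone gave 0.0234.

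Over the 10 tested members, an adjusted p under 0.05 together with an absolute log2 fold change over 0.5 was the call rule. Without the block 0 of 10 were called for isoproterenol averaged over plasmids, where 2.65% of all 13150 tested genes were called, although *Fzd4* and *Fzd5* (2 members) passed an unadjusted p of 0.05, as did 17.7% of all genes. With the block 1 of 10 was called, *Fzd4*, beside 5.7% of all genes, and DESeq2 without a block also called 1, *Fzd4* (adjusted p = 0.0481), beside 3.54%. In empty vector cells alone the count was 0 without the block, where 0.829% of all genes were called, and 1 with it, where 4.47% were. In sgRNA cells alone it was 0, beside 0.7%, and 1 with the block, beside 3.9%. In each of these arms 1 member had an unadjusted p under 0.05 without the block, beside 10.1% of all genes in empty vector cells and 8.46% in sgRNA cells. DESeq2 called 0 members in both, beside 1.68% and 1.35%. With 10 members, 1 call is too few to read against these shares, and the result concerns *Fzd4*, not the members as a set. The median log2 fold change of the 10 was −0.12 and that of all tested genes 0.0047.

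**Figure D3:**
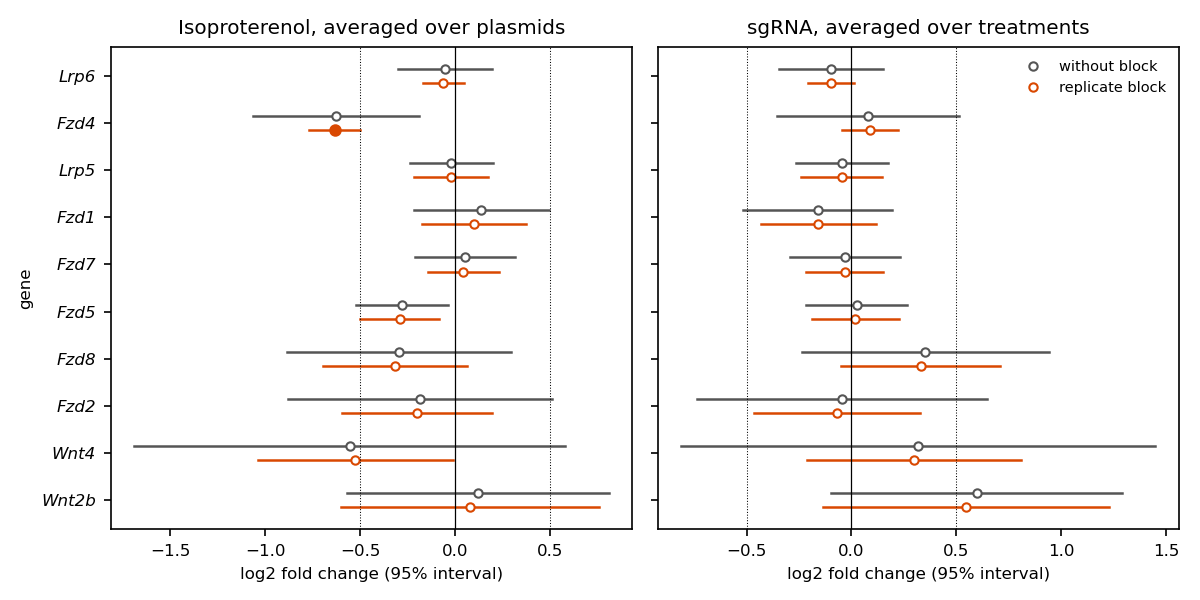
Log2 fold changes of the 10 tested genes for isoproterenol (left) and sgRNA (right) with 95% intervals, without the block (grey) and with it (orange); filled points were called and dotted lines mark 0.5. *Fzd4* under isoproterenol with the block, at −0.63, is the single called point.

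*Fzd5*, another Frizzled receptor, was lower after isoproterenol by less. Its CPM in empty vector controls were 7.70, 11.3, 9.61 and 7.996 for replicates 3 to 6, and after isoproterenol 7.47, 8.08, 10.4 and 8.50. In sgRNA controls they were 11.05, 10.1, 11.7 and 9.65, and after isoproterenol 7.28, 6.11, 9.21 and 8.12, so that the 2 sgRNA groups did not overlap whereas the empty vector groups did. The averaged log2 fold change was −0.28 (adjusted p = 0.202), and −0.29 with the block (adjusted p = 0.0444), short of the fold bound. With any 1 replicate left out, the blocked adjusted p of *Fzd5* was 0.0638 to 0.267. In sgRNA cells it was −0.48 with the block (adjusted p = 0.039) and in empty vector cells −0.10 (adjusted p = 0.714). The difference between these arms was −0.38 ± 0.195 with the block, with an unadjusted p of 0.0725 and an adjusted p of 1. Exons of *Fzd5* overlap those of a gene on the other strand, *Gm38058*, and whether counting used strand is not stated.

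The upstream sequence of *Fzd4* is shown because it was the called receptor, and that of *Fzd5* because it stood next to it. Both are the 250 bases before the RefSeq start, on GRCm38.p6, read 5′ to 3′ on the strand of the gene, chr7:89404116-89404365 (plus) and chr1:64737751-64738000 (minus). Capitals mark GC boxes (GGGCGG or its reverse complement CCGCCC) and CCAAT boxes (CCAAT or ATTGG), motifs added to the search after these sequences had been seen.
Fzd4: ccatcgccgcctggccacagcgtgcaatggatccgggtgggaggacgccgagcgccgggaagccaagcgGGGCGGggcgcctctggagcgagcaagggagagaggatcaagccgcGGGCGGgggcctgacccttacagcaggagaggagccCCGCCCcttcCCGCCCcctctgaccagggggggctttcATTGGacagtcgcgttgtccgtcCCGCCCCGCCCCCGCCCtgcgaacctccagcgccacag
Fzd5: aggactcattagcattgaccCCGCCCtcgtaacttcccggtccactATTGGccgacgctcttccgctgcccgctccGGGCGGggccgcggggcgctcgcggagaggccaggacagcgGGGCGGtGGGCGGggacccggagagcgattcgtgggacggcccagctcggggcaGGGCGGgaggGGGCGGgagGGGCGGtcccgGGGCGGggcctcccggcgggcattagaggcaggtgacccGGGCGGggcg
The *Fzd4* window held 7 GC boxes, 27 to 181 bases before the start, 2 of them sharing a base, and 1 CCAAT box at 61 bases. The *Fzd5* window held 9 GC boxes, 10 to 230 bases before the start, and 1 CCAAT box at 204 bases. Their GC contents were 72.8% and 76.4%, against a median of 52.4% over all 32851 windows of this length. A GC box was present in 32.7% of all windows and a CCAAT box in 33.8%. Neither window held the cAMP response element TGACGTCA (1.55% of all windows), its half-site TGACG, which lies within it (17.8%), the TCF/LEF motif CTTTGAT (3.21%), the CEBP motif TTGCGCAA (0.164%) or the direct repeat bound by PPAR (0.0335%) on either strand. Of the 45 genes 29 had at least 1 window, 32 windows in all, and 23 of these held a GC box. *Fzd7*, which was not called, held 6 GC boxes and 2 CCAAT boxes.

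The other Frizzled receptors gave intervals around 0 for isoproterenol. With the block, the log2 fold change of *Fzd1* was 0.10 (−0.17 to 0.37), of *Fzd7* 0.04 (−0.14 to 0.23), of *Fzd2* −0.20 (−0.59 to 0.19) and of *Fzd8* −0.32 (−0.70 to 0.06). *Fzd1* ranged from 6.31 to 14.6 CPM over the 16 libraries and was higher after isoproterenol in 4 of 8 pairs. *Fzd7* ranged from 5.32 to 8.78 CPM and was higher in 6 of 8. *Fzd8* ranged from 0.644 CPM, in the stimulated empty vector library of replicate 3 with 5 counts, to 4.79 CPM. Its isoproterenol change without the block was −0.30, and −0.16 without that library and −0.51 without the stimulated empty vector library of replicate 5. *Fzd2* ranged from 0.641 to 3.65 CPM. *Fzd1*, *Fzd2* and *Fzd7* are close paralogs with single-exon genes. Because salmon divides reads that fit several transcripts, their separate levels could be uncertain, and such sharing of reads was not measured. The remaining receptors were scarce, *Fzd9* with 79 counts in all libraries, *Fzd6* with 31, *Fzd3* with 19 and *Fzd10* with 2.

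**Figure D4:**
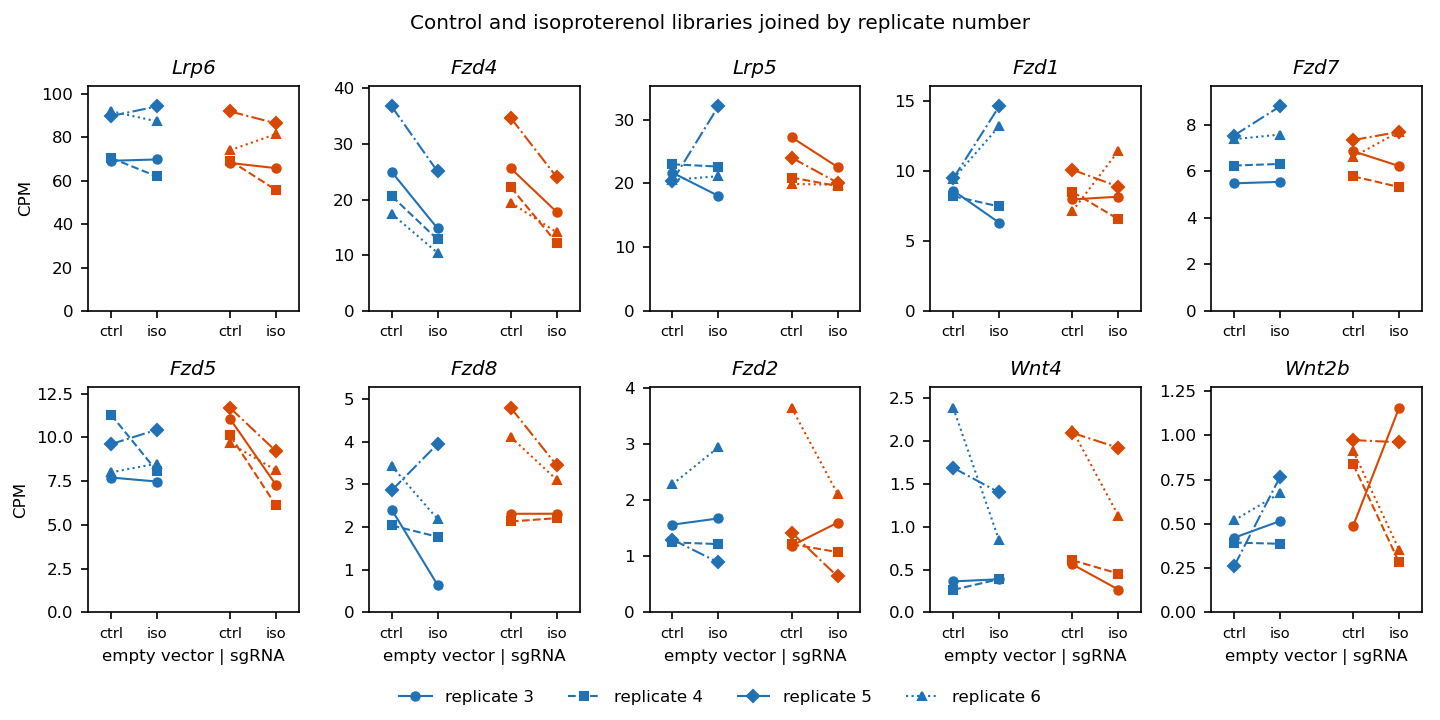
CPM of the 10 tested genes in control (ctrl) and isoproterenol (iso) libraries, joined by replicate number, with empty vector pairs in blue on the left of each panel and sgRNA pairs in orange on the right. All 8 lines of *Fzd4* slope down, and in *Wnt4* the libraries of replicates 5 and 6 lie above those of 3 and 4.

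Within the summed CPM per kb of the 10 Frizzled receptors, *Fzd4* took 37.4% ± 7.31 (SD, n = 4) in empty vector controls and 27.4% ± 7.12 after isoproterenol. In sgRNA cells its share was 37.2% ± 4.63 without and 30.4% ± 5.62 with the agonist. *Fzd1* took 22.1% ± 2.54 in empty vector controls, and 28.3% ± 5.73 after isoproterenol, which overlapped the share of *Fzd4* there. The Frizzled sum was lower after isoproterenol in 8 of 8 pairs, at 0.846 ± 0.108 (SD) of the control. Without *Fzd4* the sum was lower in 5 of 8 pairs, at 0.963 ± 0.152.

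**Figure D5:**
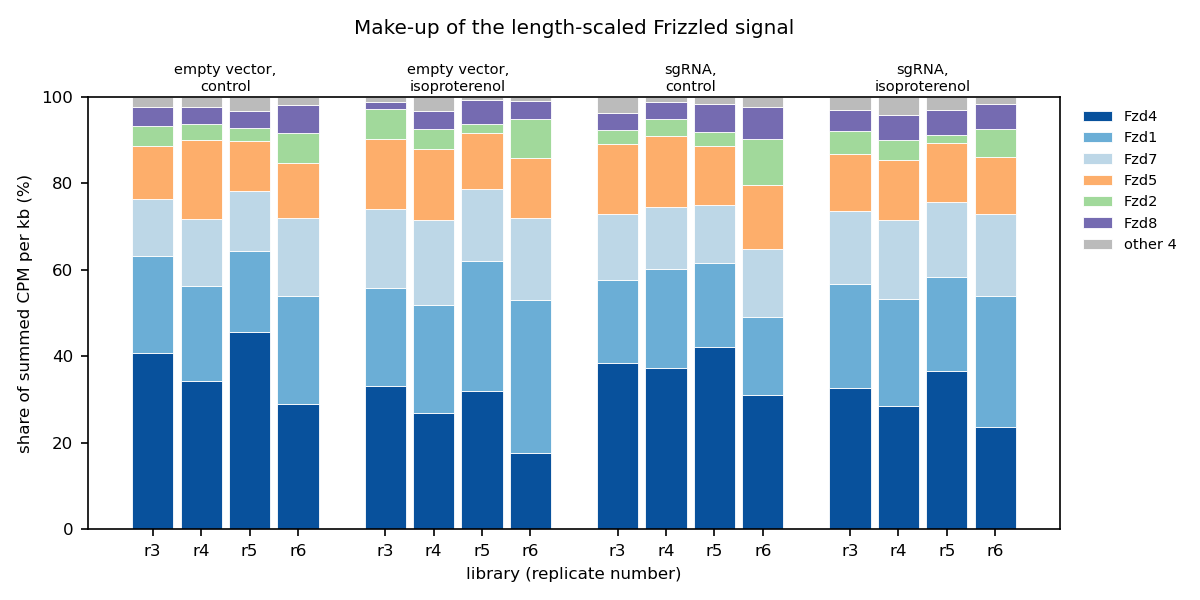
Share of each Frizzled receptor in the summed CPM per kb of all 10 (percent), 1 bar per library, grouped by plasmid and treatment. The *Fzd4* share averages 37.4% and 37.2% in the 2 control groups and 27.4% and 30.4% in the stimulated ones.

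Markers of the cells moved with the same treatment. The sum of 7 adipocyte markers, 12200 to 26500 CPM over the libraries, was lower after isoproterenol in 8 of 8 pairs, at 0.668 to 0.936 of the control. A sum is weighted towards its most abundant genes, so it does not show that the 7 markers moved together. In group means *Adipoq* fell from 774 to 340 CPM with the empty vector and from 790 to 414 CPM with the sgRNA plasmids. *Fabp4*, *Cebpa*, *Plin1* and *Cidec* were also lower with both plasmids. *Pparg* changed little, from 137 to 128 and from 136 to 134 CPM. *Lpl* went from 3940 to 3780 and from 4000 to 4120 CPM. The sum of 6 brown adipocyte markers was higher in 8 of 8, at 1.16 to 1.75 of the control, most of it from *Ppargc1a*. Group means of *Ppargc1a* rose from 37.9 to 60.3 CPM with the empty vector and from 40.7 to 68.8 CPM with the sgRNA plasmids. *Ucp1* and *Cidea* also rose, whereas *Ebf2* fell from 17.4 to 12.5 and from 18.1 to 13.1 CPM. *Prdm16* did not rise, and *Dio2* was nearly absent. The sum of 8 preadipocyte or fibroblast markers, 8.53 to 94.8 CPM, was higher in 8 of 8 pairs, at 1.29 to 2.6, most of it from *Ly6a*. The sum of 5 macrophage markers was also higher in 8 of 8, at 1.57 to 2.35, and came almost wholly from *Cd68*, a lysosomal protein, whereas the defining leukocyte genes *Ptprc* and *Adgre1* had at most 2 counts in any group. Endothelial markers summed to 1.42 to 3.15 CPM and smooth muscle markers to 11.8 to 32.7 CPM, lower in 4 and 5 of 8 pairs. No list had a gene at 0 in every library. The part of these shifts in the *Fzd4* result was not tested, and in such bulk samples fewer cells of a type and less RNA per cell cannot be told apart.

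The co-receptors pair with a Frizzled receptor to pass on the β-catenin signal, and both stayed within their spread. *Lrp6* stood at 69.2, 70.5, 89.8 and 92.1 CPM in empty vector controls of replicates 3 to 6, and at 69.8, 62.0, 94.3 and 87.4 CPM after isoproterenol. In sgRNA controls it stood at 68.2, 69.3, 92.0 and 74.1 CPM, and after isoproterenol at 65.8, 55.8, 86.5 and 81.6 CPM. Replicate number separated the libraries more than treatment did, with means of 68.3, 64.4, 90.7 and 83.8 CPM for replicates 3, 4, 5 and 6. The isoproterenol log2 fold change of *Lrp6* with the block was −0.06 (−0.17 to 0.05) and that of *Lrp5* −0.02 (−0.22 to 0.17). These intervals exclude changes as large as that of *Fzd4*. *Lrp5* ranged from 18.0 to 32.1 CPM.

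Among the ligands *Wnt4*, known from kidney and gonad development, was the most abundant over all libraries together, with 3 to 28 counts per library. By replicate means it led in replicates 5 and 6 only. *Wnt2b*, at 0.645, 0.475, 0.739 and 0.614 CPM in replicates 3 to 6, was above it in replicates 3 and 4. The CPM of *Wnt4* in empty vector controls were 0.361, 0.263, 1.69 and 2.39 for replicates 3 to 6, and 0.387, 0.387, 1.40 and 0.841 after isoproterenol. In sgRNA controls they were 0.560, 0.608, 2.10 and 2.13, and after isoproterenol 0.267, 0.453, 1.92 and 1.13. Every library of replicates 5 and 6 lay above every library of replicates 3 and 4, with replicate means of 0.393, 0.428, 1.78 and 1.62 CPM, and replicate number took a share of 0.844 of the variance of its log2 CPM. The isoproterenol log2 fold change was −0.56 ± 0.534 (adjusted p = 0.661), and −0.53 ± 0.241 with the block (unadjusted p = 0.0449, adjusted p = 0.138). Without replicate 6 the change of *Wnt4* was −0.15, and −0.18 with the block. The other tested ligand, *Wnt2b*, had 2 to 13 counts per library, and its isoproterenol log2 fold change was 0.12 ± 0.325.

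The other ligands were detected at a few counts or not at all. *Wnt11* had 59 counts in the 16 libraries together, *Wnt9a* 36 and *Wnt5b* 14, and *Wnt10a* and *Wnt10b*, a ligand known to hold back adipogenesis, 10 each. *Wnt16* and *Wnt5a*, the latter a ligand of β-catenin-independent signalling, had 9 each, *Wnt8b* 7, *Wnt3* 4, and *Wnt1*, *Wnt3a* and *Wnt7b* 1 each. Differences between groups were not detectable at this depth.

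The secreted inhibitors, the R-spondins and *Axin2* stayed below the filter in all cases. *Sfrp5*, an Sfrp protein linked to adipose tissue, was the most abundant inhibitor, with 9, 1, 2 and 4 counts in empty vector controls and 0, 2, 1 and 1 after isoproterenol. In sgRNA cells it had 2, 2, 2 and 5 counts without and 2, 2, 5 and 4 with isoproterenol. *Sfrp2* had 21 counts in total, *Sfrp1* 9, *Sfrp4* 6, *Dkk2* 7, *Dkk3* 4, and *Dkk4* and *Wif1* 1 each. *Dkk1*, the co-receptor antagonist, had 7 counts, of which 2 were in the empty vector control library of replicate 5 and 1 each in 5 further libraries. *Rspo2*, the R-spondin with the most counts, had 3 in the stimulated sgRNA library of replicate 6, 1 each in 4 others and 0 in the rest. *Rspo3* had 2 counts and *Rspo4* 1.

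*Axin2*, a scaffold of the β-catenin destruction complex and a common readout of the pathway, had 3, 4, 2 and 3 counts in empty vector controls and 2, 4, 1 and 1 after isoproterenol. In sgRNA cells it had 3, 1, 1 and 4 counts without and 0, 2, 3 and 1 with isoproterenol. All 4 groups overlapped. With at most 4 counts in a library, no difference was detectable.

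The sgRNA plasmids moved no member past the test. Averaged over treatments, 0 of 10 were called without the block, where 0% of all genes were called, and 0 of 10 with it, where 0.266% were. In control cells the counts were 0 and 0, beside 0% and 0.0304% of all genes, and in stimulated cells 0 and 0, beside 0% and 0.122%. For the interaction of plasmid and treatment they were 0 and 0, beside 0% and 0%. No member had an unadjusted p under 0.05 in any of these comparisons in edgeR with or without the block. With 10 members, this count is too small to read as a result about them as a set. The share of all genes at that p, averaged over treatments, is given below with the pathway list. DESeq2 called 0 members in each, beside 0.076% of all genes averaged, 0.0228% in control cells, 0.0304% in stimulated cells and 0% for the interaction. The largest averaged change was that of *Wnt2b*, 0.60 with an interval of −0.10 to 1.29. In controls *Wnt2b* stood at 0.421, 0.394, 0.260 and 0.519 CPM with the empty vector and at 0.490, 0.836, 0.973 and 0.912 CPM with the sgRNA plasmids, groups that overlapped by 1 library, although the sgRNA library was higher in 4 of 4 pairs (log2 fold change 0.97, unadjusted p = 0.0524, adjusted p = 1). After isoproterenol *Wnt2b* stood at 0.515, 0.387, 0.763 and 0.673 CPM with the empty vector and at 1.155, 0.283, 0.961 and 0.353 CPM with the sgRNA plasmids, higher in 2 of 4 pairs and lower in 2 (log2 fold change 0.22, adjusted p = 1). For *Fzd4* the averaged sgRNA change with the block was 0.09 (−0.05 to 0.22) and for *Lrp6* −0.10 (−0.21 to 0.01).

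The wider pathway was read from a list of 79 genes for secretion, receptors, the β-catenin complex, nuclear factors, cell polarity and targets, of which 59 passed the filter. For isoproterenol 2 of 59 were called without the block, 1 higher and 1 lower, and 3 with it, 1 higher and 2 lower, against the backgrounds of 2.65% and 5.7% given for all genes. The list's median log2 fold change was −0.02. *Apcdd1*, a membrane inhibitor of Wnt signalling, fell from 7.09 ± 0.681 to 2.44 ± 0.455 CPM with the empty vector and from 7.197 ± 1.699 to 2.49 ± 0.421 CPM with the sgRNA plasmids (SD, n = 4 each). Its averaged log2 fold change was −1.54 ± 0.143 (adjusted p = 7.36e-06), and it was lower in 8 of 8 pairs. *Fosl1*, an AP-1 subunit often listed as a β-catenin target, rose from 15.3 ± 5.68 to 35.4 ± 6.53 CPM and from 16.6 ± 6.92 to 33.4 ± 5.25 CPM, a log2 fold change of 1.1 ± 0.21 (adjusted p = 0.00611). The adjusted p of *Fosl1* without the block was 0.064 without replicate 3 and 0.0672 without replicate 6.

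*Daam2*, a formin of the polarity branch, was lower in 8 of 8 pairs. It fell by 0.75 on the log2 scale with the block (adjusted p = 0.00845), against a change of −0.73 without it (adjusted p = 0.0858) and of −0.72 in DESeq2 without a block (adjusted p = 0.0492). Without replicate 3 the blocked adjusted p of *Daam2* was 0.0717. *Lgr4*, a receptor for R-spondins, was lower in 8 of 8 pairs with a log2 fold change of −0.27 (adjusted p = 0.0603, and 0.00982 with the block), within the fold bound. Without replicate 4 the blocked change of *Lgr4* was −0.16 (adjusted p = 0.102). *Wls* and *Porcn*, which make ligands ready for secretion, had changes of −0.09 (adjusted p = 0.816) and 0.20 (adjusted p = 0.683). Over all settings run, the change lay between −0.148 and −0.012 for *Wls* and between 0.106 and 0.301 for *Porcn*, with no adjusted p under 0.05. *Ctnnb1*, which encodes β-catenin, stood at 207.5 to 266.2 CPM and changed by 0.04 ± 0.0647 (adjusted p = 0.808). *Tcf7l2*, a nuclear partner of β-catenin, changed by −0.26 ± 0.177 (adjusted p = 0.492), and by −0.28 ± 0.121 with the block (adjusted p = 0.119). For the sgRNA plasmids 0 of 59 were called without the block and 0 with it, and DESeq2 called 0. At an unadjusted p under 0.05 there were 0 of 59 and 3 of 59 (5.08%), beside 3.32% and 11.5% of all genes.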

How the data were processed

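Polyadenylated RNA was sequenced in paired ends. The authors used cutadapt for quality filtering and salmon for quantification on GENCODE M22 transcripts (GRCm38), alone or joined with RNAcentral, and deposited estimated counts per gene as whole numbers, not normalized. Tool versions and strand use are not given in the sources used here. No rounding was needed, and all 16 columns matched a sample title.

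Counts were tested in R 4.3.3 with edgeR 4.0.16. Genes were kept by filterByExpr (minimum count 10, minimum total 15), which left 13150, scaled by TMM, and fitted with the 4 group means by glmQLFit. Contrasts were tested two-sided by glmQLFTest with Benjamini-Hochberg adjustment over these genes. Scripts were tested on simulated data. Exon lengths and positions came from GENCODE M21 (GRCm38) and upstream sequences from RefSeq.

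Samples of equal replicate number correlated in their deviations from group means (24 pairs, 0.224 to 0.613, median 0.410). The 72 pairs of unequal number had a median of −0.215 and ranged from −0.512 to 0.516, so the ranges overlapped. Values with the number as a block are printed where they change a call, and for other genes where the text says so. This pairing comes from the data, not the labels. No 2 libraries of a group agreed within sampling noise. DESeq2 1.42.0, other scalings and filters, and leaving out replicates were alternatives.

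The members and the lists were chosen with earlier results of these data known. Values per library are given for called members and for the most abundant member of each role and *Axin2*. Pathway genes are named when called, with 5 others fixed by symbol. *Fzd5* and *Wnt2b* were described after their values were seen.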

Additional observations from a re-analysis of the deposited data

Results flagged for a closer look

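*Fzd2* in the sgRNA control library of replicate 6 stood at 3.65 CPM, far from the other 3 libraries of its group, which lay at 1.19, 1.22 and 1.42 CPM. Dixon's criterion at 95% singled it out among 40 groups of 4 libraries examined for the 10 tested genes, and chance alone would single out about 1 in 20. *Fzd2* was also highest in replicate 6 in the other 3 groups, with replicate means of 1.51, 1.19, 1.06 and 2.75 CPM for replicates 3 to 6. The cause was not tested.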

How the results depend on the processing

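The number of members called for isoproterenol averaged over plasmids went from 0 to 1 with the replicate block, without the filter on low counts, with the block and the ribosomal RNA share as covariate, with the block and both empty vector libraries of replicate 5 left out (chosen after seeing the data), and in the DESeq2 test. In empty vector cells and in sgRNA cells it went from 0 to 1 in the 3 settings with the block. For the averaged effect 1.25% of all genes were called without the filter, 5.55% with the block and the covariate, and 5.83% with the block and those 2 libraries left out. The shares in empty vector cells were 4.31% and 4.42% in the latter 2 settings, and in sgRNA cells 4.09% and 4.05%. The member was *Fzd4*, whose change averaged over plasmids kept its sign in every setting run and lay between −0.78 and −0.51, with adjusted p from 2.03e-06 to 0.455. Without the block it was called when replicate 5 (adjusted p = 0.0192, 2.4% of all genes called) or its stimulated empty vector library (adjusted p = 0.0234, 3.46%) was left out, and with the block in all 4 fits that left out a replicate. Leaving out libraries or replicates gave 0 to 1 members called for isoproterenol averaged without the block and 1 in every fit with it, and in each plasmid 0 in every fit without the block and 1 in every fit with it. In these fits, pathway genes called for isoproterenol numbered 1 to 2 without the block and 2 to 4 with it. These counts were not set against the share of all genes called in each fit, so no change of the list is read from them. The counts for the sgRNA plasmids and for the interaction stayed at 0. The cause of the change with the block was not tested, though the biological coefficient of variation was 22.6% without and 10.7% with it.

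No reversed value passed a test. For the sgRNA plasmids, the block with the ribosomal RNA covariate gave log2 fold changes of 0.026 for *Fzd7*, −0.16 for *Daam2*, −0.0011 for *Fosl1* and 0.0003 for *Lgr4*. The block without both empty vector libraries of replicate 5 gave 0.010 for *Fzd7*, 0.034 for *Lrp5*, −0.018 for *Daam2* and 0.0071 for *Wls*, and −0.043 for *Wnt2b* under isoproterenol. Without the filter *Wls* had 0.0071 for the sgRNA plasmids. Leaving out libraries turned the sign of small changes. For isoproterenol the ranges were −0.070 to 0.25 for *Fzd1*, −0.40 to 0.085 for *Fzd2*, −0.0069 to 0.10 for *Fzd7*, −0.11 to 0.056 for *Lrp5*, −0.10 to 0.0022 for *Lrp6* and −0.18 to 0.36 for *Wnt2b*. For the sgRNA plasmids they were −0.31 to 0.18 for *Fzd2*, −0.019 to 0.23 for *Fzd4*, −0.055 to 0.15 for *Fzd5*, −0.12 to 0.032 for *Fzd7* and −0.16 to 0.049 for *Lrp5*. With the block and 1 replicate left out, other values whose sign turned included 0.043 for *Lrp5* and −0.092 for *Wnt2b* under isoproterenol, and 0.011 and 0.024 for *Lrp5*, −0.12 for *Apcdd1*, −0.033 for *Daam2*, −0.038 for *Fosl1* and −0.066 for *Porcn* under the sgRNA plasmids. Without the block, *Fzd1* had −0.039 under isoproterenol, *Fzd5* lay between −0.041 and 0.144 and *Fzd7* reached 0.031 under the sgRNA plasmids. The isoproterenol change of *Wnt4* kept its sign but ranged from −0.85 to −0.15. That of *Tcf7l2*, in the block with both empty vector libraries of replicate 5 left out, was −0.38 (adjusted p = 0.0385), and over the fits that left out libraries it ranged from −0.41 to −0.16 without the block and from −0.38 to −0.19 with it, with adjusted p from 0.0743 to 0.777. Among pathway genes the ranges for the sgRNA plasmids were −0.13 to 0.10 for *Apcdd1*, −0.058 to 0.29 for *Daam2*, −0.100 to 0.13 for *Fosl1*, −0.090 to 0.10 for *Porcn* and −0.088 to 0.052 for *Wls*.

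Low counts are 1 limit: 35 of 45 members did not pass the filter, and *Wnt2b* and *Wnt4* rest on 2 to 28 counts in a library. The ribosomal RNA share moves the counts left for other genes.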
